A study of Mus musculus with 13 samples.

Results

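The genes described here are 46 parts of the DNA replication machinery, followed in CD4+CD8+ double-positive (DP) thymocytes with and without a knockout (KO) of Rad21. They were named by symbol in 9 roles: the MCM helicase, origin recognition and licensing, helicase activation, the sliding clamp and its loader, DNA polymerases and primase, single-strand binding, Okazaki fragment maturation, nucleotide supply, and 2 regulators. All 46 were among the 17849 genes of the count table, and all 46 were among the 12003 genes that passed the filter on low counts. The series asked how cohesin, the ring-shaped protein complex that holds Rad21 as a subunit, acts on gene expression and chromosome folding. Its labels list 13 samples, of which the 4 RNA libraries were used: 2 of Rad21 KO and 2 of wild type sorted DP thymocytes. The labels do not say how, when or in which cells of the mouse Rad21 was deleted, what the wild type animals carried, or how old the mice were. A mixed C57BL\6 and 129 background is given for the ChIP and Hi-C samples only. The labels name separate samples and not separate mice, so every p-value below measures the spread between these libraries, which may be technical.

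Replication begins when the origin recognition complex, Cdc6 and Cdt1 load the ring-shaped MCM helicase onto DNA, a step called licensing that the inhibitor geminin restricts to the gap phase before synthesis. Kinases and loading factors then add Cdc45 and the GINS complex, the helicase opens the fork, and polymerases held by the sliding clamp PCNA copy both strands. Many of these genes are transcribed under E2F factors as cells enter S phase. In the thymus, a burst of division accompanies the passage from double-negative to DP cells, and most DP cells afterwards are small and no longer dividing.

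The promoters of the 6 genes that passed the test below are printed here, with that of Mcm6, which held the most E2F matches of the matched genes and did not pass it. RefSeq windows on GRCm38.p6 reached from 250 bases before to 50 bases after each gene start, and 38 of the 46 genes had one. The windows were chr4:108579204-108579503 on the + strand for Orc1, chr8:122567765-122568064 on the + strand for Cdt1, chr2:132253131-132253430 on the − strand for Pcna and chr5:151651159-151651458 on the − strand for Rfc3. They were chr7:44548766-44549065 for Pold1, chr6:8259092-8259391 for Rpa3 and chr1:128359656-128359955 for Mcm6, all on the − strand. Each is written 5′ to 3′ in the direction of its gene, and capitals mark a match to an E2F motif on either strand.
Orc1: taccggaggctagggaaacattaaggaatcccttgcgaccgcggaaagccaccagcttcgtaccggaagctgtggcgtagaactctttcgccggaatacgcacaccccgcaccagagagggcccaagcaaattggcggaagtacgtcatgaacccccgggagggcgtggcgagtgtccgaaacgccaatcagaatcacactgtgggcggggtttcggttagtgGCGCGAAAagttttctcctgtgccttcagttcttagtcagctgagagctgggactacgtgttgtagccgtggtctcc
Cdt1: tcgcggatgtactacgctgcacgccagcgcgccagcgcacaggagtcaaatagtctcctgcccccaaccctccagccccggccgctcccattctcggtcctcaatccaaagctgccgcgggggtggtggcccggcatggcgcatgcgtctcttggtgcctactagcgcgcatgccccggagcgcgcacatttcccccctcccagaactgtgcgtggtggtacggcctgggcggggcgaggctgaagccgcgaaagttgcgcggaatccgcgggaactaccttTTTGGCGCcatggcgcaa
Pcna: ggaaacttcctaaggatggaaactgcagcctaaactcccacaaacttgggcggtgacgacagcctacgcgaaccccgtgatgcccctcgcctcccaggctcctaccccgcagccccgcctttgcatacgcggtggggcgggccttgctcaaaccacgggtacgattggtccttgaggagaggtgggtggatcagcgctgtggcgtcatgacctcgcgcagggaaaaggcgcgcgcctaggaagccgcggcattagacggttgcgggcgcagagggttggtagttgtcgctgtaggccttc
Rfc3: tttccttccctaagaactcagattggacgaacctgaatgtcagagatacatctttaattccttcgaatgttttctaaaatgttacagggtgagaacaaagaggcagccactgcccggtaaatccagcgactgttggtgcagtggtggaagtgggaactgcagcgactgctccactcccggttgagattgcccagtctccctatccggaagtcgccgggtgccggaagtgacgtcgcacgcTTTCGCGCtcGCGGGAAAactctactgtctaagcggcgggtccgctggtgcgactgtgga
Pold1: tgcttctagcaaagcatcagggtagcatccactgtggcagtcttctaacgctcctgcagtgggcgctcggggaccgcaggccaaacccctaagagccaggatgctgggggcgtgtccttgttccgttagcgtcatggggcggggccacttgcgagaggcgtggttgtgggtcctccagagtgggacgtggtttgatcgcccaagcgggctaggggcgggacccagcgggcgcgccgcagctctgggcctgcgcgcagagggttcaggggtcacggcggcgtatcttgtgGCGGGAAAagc
Rpa3: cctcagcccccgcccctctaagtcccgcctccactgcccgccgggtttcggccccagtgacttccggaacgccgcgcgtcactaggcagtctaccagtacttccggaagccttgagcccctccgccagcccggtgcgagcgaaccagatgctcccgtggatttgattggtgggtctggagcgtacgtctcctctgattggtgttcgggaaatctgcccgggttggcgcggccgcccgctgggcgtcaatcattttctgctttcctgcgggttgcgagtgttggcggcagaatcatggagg
Mcm6: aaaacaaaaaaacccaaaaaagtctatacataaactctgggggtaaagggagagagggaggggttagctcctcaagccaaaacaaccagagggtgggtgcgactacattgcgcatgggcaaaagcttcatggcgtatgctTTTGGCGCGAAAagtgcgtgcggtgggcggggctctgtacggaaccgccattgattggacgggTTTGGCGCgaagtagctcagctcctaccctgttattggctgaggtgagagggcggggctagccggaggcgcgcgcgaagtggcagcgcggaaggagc

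The E2F motif was searched as TTTCCCGC, TTTGGCGC, TTTCGCGC or TTTGCCGC on both strands. None of these words contains the CCAAT box or its reverse complement, which was searched separately. An E2F word stood in the windows of 15 of the 38 matched genes (39.5%), against 439 of the 9118 tested genes with a window (4.82%). Of all 27025 genes with a window, 704 held one (2.6%). CCAAT stood in 24 of the 38 (63.2%), against 43.2% of the tested genes and 41.1% of all genes with a window, and 9 member genes held both. The median GC content was 60.0% in the member windows and 60.7% in those of all tested genes. Such a match describes the letters of the window and is not evidence of binding. The 15 genes held 21 matches between 185 bases before and 40 bases after the start, 13 of them within 50 bases of it. TTTCCCGC, TTTCGCGC and TTTGGCGC occurred 7 times each and TTTGCCGC 0 times, and in Mcm5 and Mcm6 a match on each strand overlapped. By role, matches were found in 4 of 5 MCM genes, 4 of 8 origin and licensing genes, 3 of 6 polymerase genes, 1 of 5 clamp and loader genes, 0 of 3 single-strand binding genes and 0 of 4 nucleotide genes. Among the genes that rose, Orc1, Cdt1, Rfc3 and Pold1 held a match and Pcna held none. The 15 genes with a match had a median log2 fold change of 0.17, with 4 higher and 0 lower, and the 23 without one a median of −0.01, with 1 higher and 1 lower. Over all 12003 tested genes 7.6% were higher and 5.17% lower. The split of the members by E2F match was not tested.

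**Figure D1:**
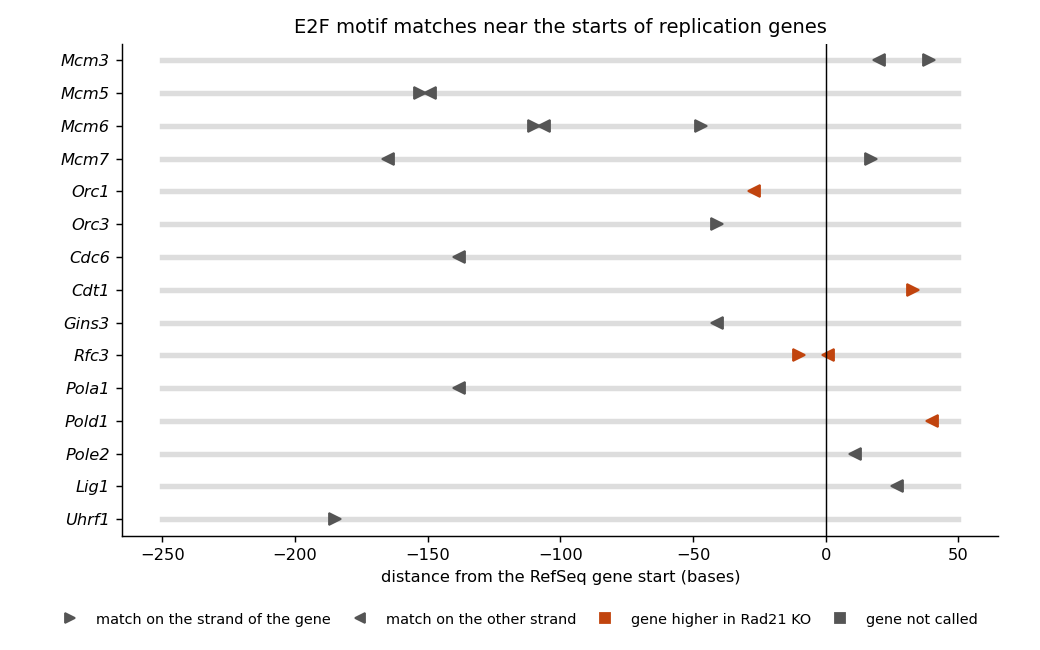
Position of each E2F motif match in the 15 member promoter windows that held one, in bases from the gene start (horizontal axis), 1 row per gene; right- and left-pointing marks stand for matches on the strand of the gene and on the other strand, in orange for genes higher in Rad21 KO and in grey for genes not called. Most matches, 13 of 21, lie within 50 bases of the start. Of the 15 genes 4 were higher in Rad21 KO, against 7.6% of all 12003 tested genes, a split that was not tested.

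Rad21 itself (ENSMUSG00000022314) had 67.9 and 65.7 CPM (counts over the TMM-scaled library size) in Rad21 KO libraries, against 271 and 233 CPM in wild type libraries (log2 fold change −1.91, SE 0.12, adjusted p = 0.000862 with edgeR). The libraries held 9384505 and 6914654 counts for Rad21 KO, against 6633506 and 6500819 for wild type, and 3 counts corresponded to 0.410 to 0.417 CPM. Rad21 KO replicate 1 stood apart: the genes Lars2 and Gm15564 took 34.5% of its counts, against 12.6% in Rad21 KO replicate 2 and 5.84% and 7.47% in wild type. Without both genes the totals were 6149085 and 6040240 in Rad21 KO and 6245781 and 6015242 in wild type, and the 6 member calls given next were made without them too. All 12 DP markers were present, none below 69.6 CPM, with summed levels of 11189 and 9927 CPM in Rad21 KO and 15784 and 14340 CPM in wild type; Rag1, Rag2, Cd1d1, Lck and Themis fell, a count of 5 that was 3 without Rad21 KO replicate 1, 2 without Rad21 KO replicate 2 and 2 without wild type replicate 1. Of 10 early double-negative markers 7 were tested. Notch1, Hes1, Ptcra, Dtx1 and Mpzl2 rose, Cd44 fell and Il2ra was not called. Il2ra had 18.9 and 20.4 CPM in Rad21 KO and 18.9 and 21.2 CPM in wild type. Over all 12003 tested genes 7.6% were higher and 5.17% lower. The early markers summed to 457 and 383 CPM in Rad21 KO and 194 and 214 CPM in wild type. Most of each sum was Notch1, at 366 and 288 CPM in Rad21 KO and 140 and 158 CPM in wild type. Kit, another early marker, had 2 and 12 counts in Rad21 KO and 7 and 7 counts in wild type. Il7r had 0 and 8 counts in Rad21 KO and 14 and 8 counts in wild type. Whether these marker differences have a part in the results for replication genes was not tested.

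Of the 46 replication genes, 5 were higher in Rad21 KO than in wild type (Orc1, Cdt1, Pcna, Rfc3 and Pold1), 1 was lower (Rpa3) and 40 were not called, at an adjusted p under 0.05 in a fit across all tested genes with edgeR's quasi-likelihood test. Over all 12003 tested genes the same rule called 12.8%, with 7.6% higher and 5.17% lower. The members' count of 6 of 46 was therefore close to the background. Their log2 fold changes ran from −1.07 to 1.04, 23 above 0 and 23 below, with a median of −0.00043 beside −0.0065 for all tested genes. At an unadjusted p under 0.05, 5 genes were higher and 3 lower, the added 2 being Lig1 and Rfc2. Over all 12003 tested genes, 1889 were higher and 1643 lower by that rule. In these bulk libraries, a change in the share of cells that express a gene and a change in its RNA per cell cannot be told apart.

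**Figure D2:**
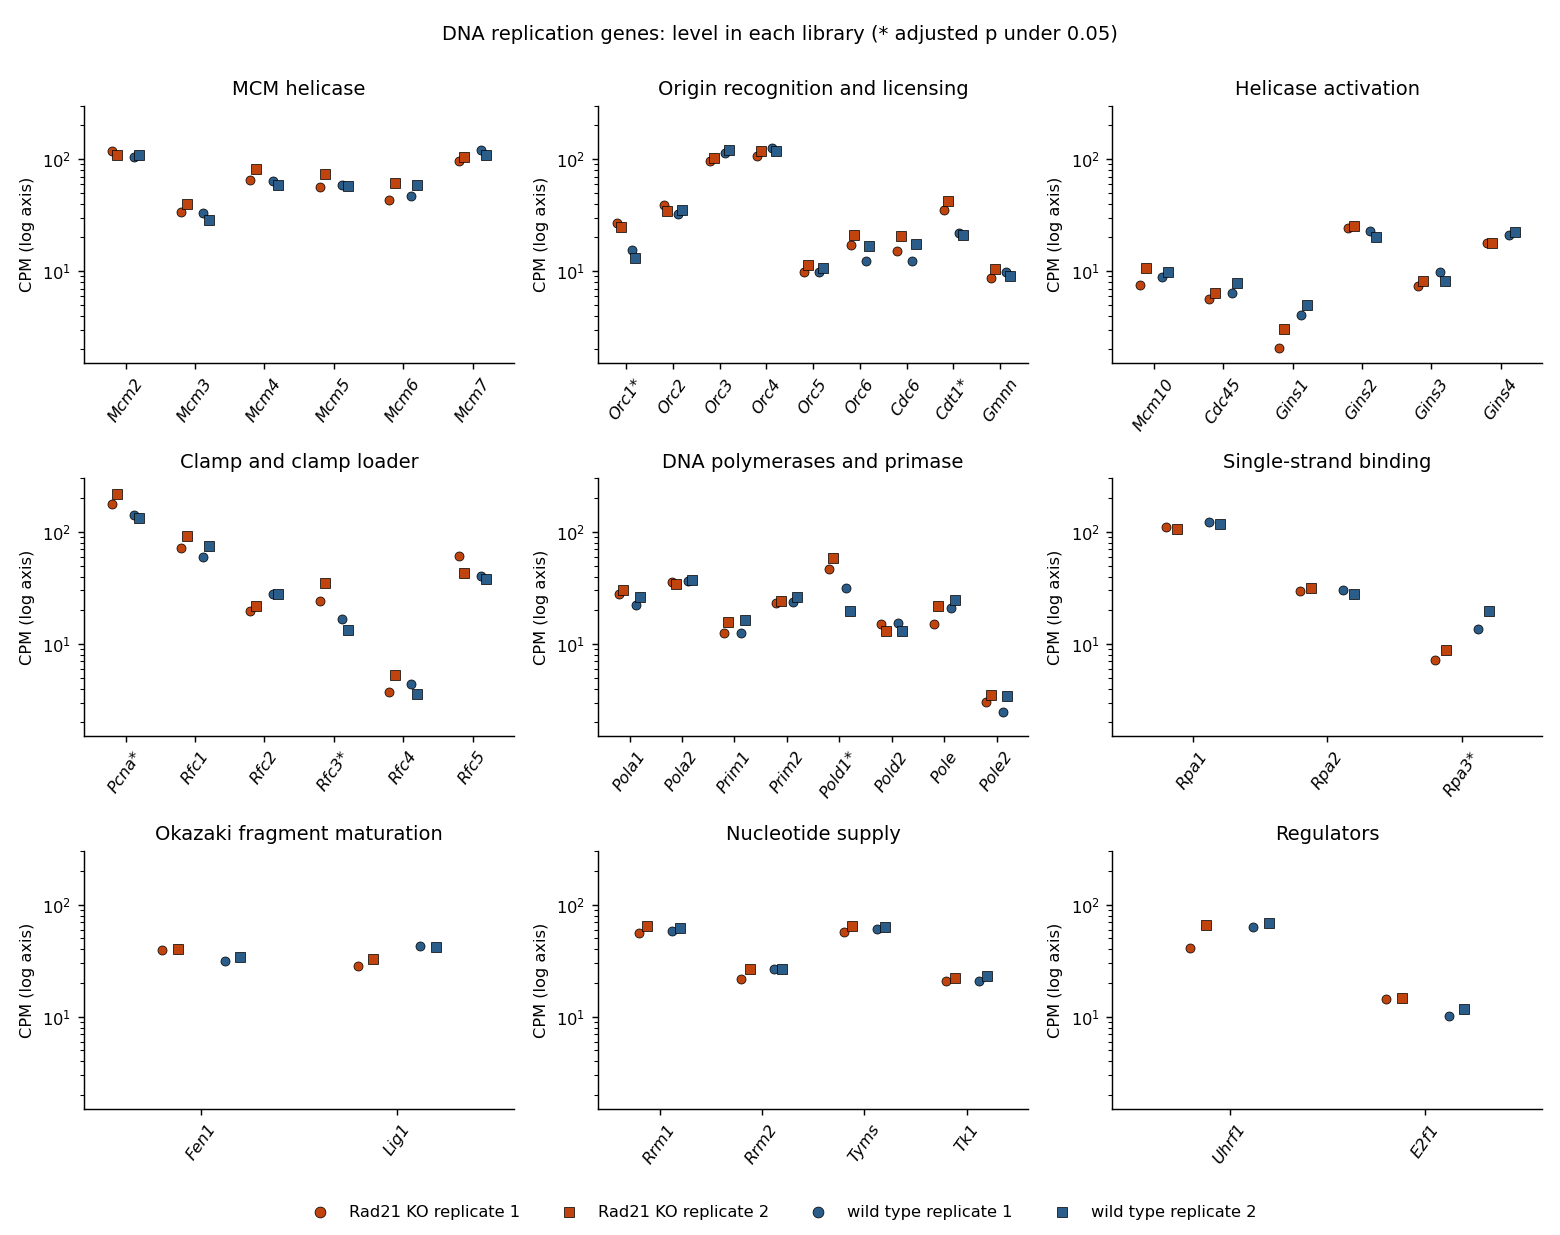
Level of each of the 46 genes in each library, in CPM on a log axis, grouped by role, with Rad21 KO libraries before wild type libraries in the legend; an asterisk marks a gene that passed the test. For most genes the 4 points lie close together. The genotypes do not overlap for 13 genes with Rad21 KO above and 12 genes with Rad21 KO below. These include Orc1, Cdt1, Pcna, Rfc3, Pold1 and Rpa3, and also genes not called. Together they are 54.3% of the members, against 58.9% of all tested genes.

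The libraries of the genotypes did not overlap for 25 of the 46 genes, 13 with both Rad21 KO libraries above both wild type libraries and 12 with both below. Among all tested genes 29.7% lay above, 29.2% below and 58.9% in either direction, so the members' 54.3% was no higher than the background. The fitted fold change was within 1.5-fold for 40 of the 46 (87.0%, against 78.5% of all tested genes). Its 95% interval lay wholly within 2-fold in either direction for 39 of the 46 (84.8%), against 65.3% of all tested genes and 71.7% of the 9492 tested genes in the members' range of mean CPM. The 7 exceptions were the called genes Orc1, Cdt1, Rfc3, Pold1 and Rpa3 and the low-count genes Gins1 and Pole2. For Pcna, the interval of the log2 fold change was 0.24 to 0.84.

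**Figure D3:**
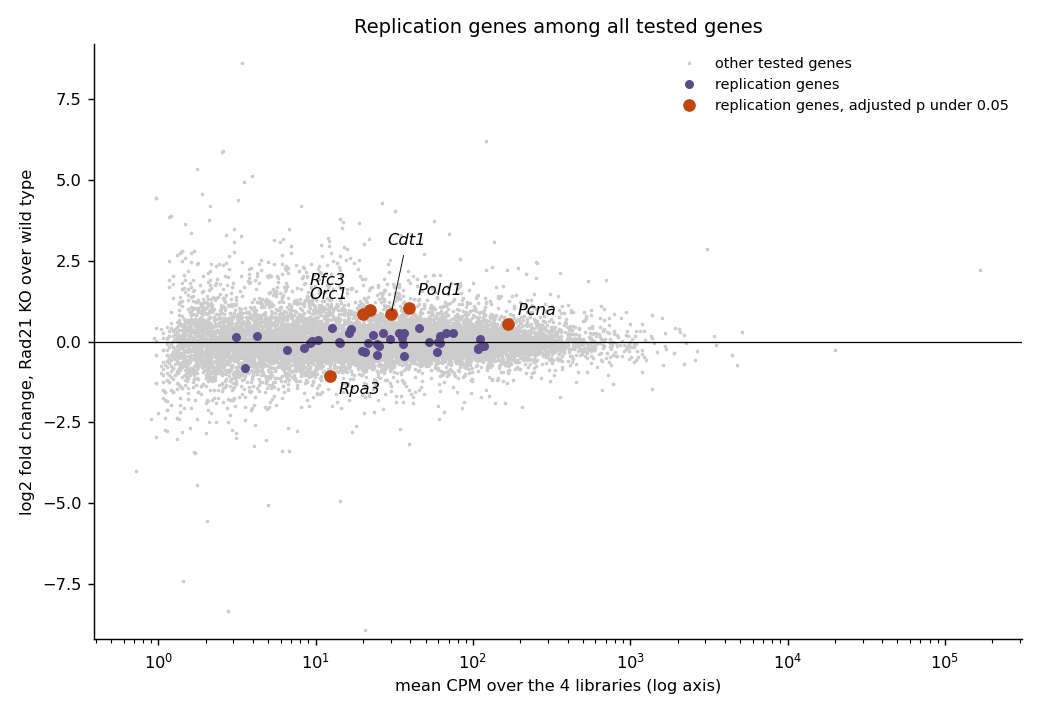
Mean CPM (horizontal, log axis) against the log2 fold change of Rad21 KO over wild type (vertical) for all 12003 tested genes (grey), the replication genes not called (purple) and the 6 called (orange, named). The members lie in a band around 0 between −1.07 and 1.04.

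The 6 genes of the MCM helicase, which form the ring that unwinds DNA at the fork, included none that was called by edgeR, at an unadjusted p under 0.05, by DESeq2 or by limma-voom. Their summed level was 414 and 469 CPM in Rad21 KO libraries, against 426 and 422 CPM in wild type libraries. Mcm2 had 119 and 108 CPM in Rad21 KO and 105 and 109 CPM in wild type. Mcm3 had 33.8 and 40.2 CPM in Rad21 KO and 32.9 and 28.7 CPM in wild type, and Mcm4 had 64.7 and 82.0 CPM in Rad21 KO and 63.8 and 58.6 CPM in wild type. Both had Rad21 KO libraries above wild type, each at 0.26 on the log2 scale (SE 0.16 and 0.15), a difference that did not pass the test. Mcm5 stood at 56.7 and 73.7 CPM in Rad21 KO and 58.3 and 57.8 CPM in wild type. Mcm6, with 3 E2F matches in its promoter, had 43.3 and 61.6 CPM in Rad21 KO and 46.6 and 59.0 CPM in wild type. The replicates of each genotype spanned nearly the same range, and the log2 fold change of −0.01 had a 95% interval of −0.48 to 0.46. Mcm7 was the one MCM gene with both Rad21 KO libraries below wild type, at 96.8 and 104 CPM in Rad21 KO against 119.7 and 108 CPM in wild type, and had an adjusted p of 0.319 with edgeR (log2 fold change −0.19, SE 0.11). Its gene overlaps Ap4m1 and 3 microRNA genes, so its count is uncertain.

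Among the 9 origin recognition and licensing genes, 2 rose in Rad21 KO and 7 were not called. Of all 12003 tested genes 7.6% were higher. Orc1 (ENSMUSG00000028587) is an ATP-binding subunit of the origin recognition complex and is itself under E2F control. It had 27.1 and 24.6 CPM in Rad21 KO libraries, against 15.6 and 13.0 CPM in wild type libraries. Both Rad21 KO libraries lay above both wild type libraries. The means were 25.9 ± 1.77 CPM in Rad21 KO and 14.3 ± 1.81 CPM in wild type (SD, n = 2 each), a 1.81-fold difference (log2 fold change 0.85, SE 0.18, adjusted p = 0.0259 with edgeR). Orc1 was no longer called when Rad21 KO replicate 1 (0.79) or wild type replicate 2 (0.73) was left out. Orc1 overlaps Prpf38a, a splicing factor gene, which had 48.0 and 63.5 CPM in Rad21 KO and 60.0 and 54.4 CPM in wild type and was not called (log2 fold change −0.04, SE 0.16).

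Cdt1 (ENSMUSG00000006585), the factor that brings MCM to the origin, had 35.0 and 42.7 CPM in Rad21 KO libraries, against 21.9 and 21.1 CPM in wild type libraries. The groups were well apart, with means of 38.9 ± 5.39 CPM in Rad21 KO and 21.5 ± 0.574 CPM in wild type (SD, n = 2 each). The log2 fold change was 0.86 (SE 0.16, adjusted p = 0.0183 by edgeR). Of the 6 calls, that of Cdt1 was the only one kept whichever single library was left out. Geminin (Gmnn), the inhibitor of Cdt1, had 8.62 and 10.4 CPM in Rad21 KO and 9.84 and 9.14 CPM in wild type. The genotypes overlapped, and the 95% interval of its log2 fold change, −0.54 to 0.55, was wide. Cdc6, which works with Cdt1 in loading, had 15.1 and 20.4 CPM in Rad21 KO and 12.4 and 17.3 CPM in wild type, so the groups overlapped (log2 fold change 0.25, SE 0.24).

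None of the other 5 origin recognition subunits was called. Orc2 had 39.3 and 34.7 CPM in Rad21 KO and 32.5 and 35.5 CPM in wild type, and Orc5 had 9.86 and 11.3 CPM in Rad21 KO and 9.84 and 10.7 CPM in wild type. In both, the libraries of the genotypes overlapped. Orc3 had 96.4 and 102 CPM in Rad21 KO and 113 and 120 CPM in wild type, and Orc4 had 106 and 117 CPM in Rad21 KO and 127 and 119 CPM in wild type. These stood below wild type in both Rad21 KO libraries, with log2 fold changes of −0.24 (SE 0.11) and −0.14 (SE 0.11). Orc6 stood above it, at 17.0 and 21.1 CPM in Rad21 KO against 12.4 and 16.8 CPM in wild type (0.38, SE 0.22). The 95% intervals of Orc1, 0.44 to 1.27, and of Orc3, −0.49 to 0.01, did not meet, although the difference between the subunits was not itself tested. Orc3 overlaps Akirin2 and Rars2, and Orc4 overlaps Acvr2a and Mbd5, so their counts are uncertain.

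Helicase activation, the step that turns the loaded MCM ring into a working helicase with Cdc45 and GINS, had 0 of 6 genes called by edgeR, DESeq2 or limma-voom and 0 at an unadjusted p under 0.05. The summed level was 64.9 and 71.7 CPM in Rad21 KO libraries, against 73.4 and 73.4 CPM in wild type libraries, and 5 of the 6 log2 fold changes were below 0 (median −0.23). Cdc45 had 5.61 and 6.39 CPM in Rad21 KO and 6.42 and 7.89 CPM in wild type. Gins1 rested on the fewest reads here, with 15 and 22 counts in Rad21 KO and 30 and 36 counts in wild type. At 2.05 and 3.06 CPM in Rad21 KO against 4.10 and 4.99 CPM in wild type, its fitted difference was −0.83 on the log2 scale (SE 0.37), and the 95% interval was −1.70 to 0.05. Gins4 was at 17.9 and 17.8 CPM in Rad21 KO and 21.2 and 22.4 CPM in wild type. Like Cdc45 and Gins1 it had both Rad21 KO libraries below wild type. The other two GINS subunits differed from each other in sign: Gins2 had 24.4 and 25.6 CPM in Rad21 KO and 23.0 and 20.1 CPM in wild type, and Gins3 had 7.39 and 8.20 CPM in Rad21 KO and 9.84 and 8.17 CPM in wild type. Mcm10, which helps to start the helicase, had 7.53 and 10.7 CPM in Rad21 KO and 8.88 and 9.83 CPM in wild type.

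The sliding clamp and its loader had the highest median of the roles, 0.35. In Rad21 KO 2 of these 6 genes were higher, against 7.6% of all 12003 tested genes. The summed level of the 6 was 358 and 417 CPM in Rad21 KO libraries, against 290.4 and 289.7 CPM in wild type libraries. Pcna was the largest part of it. Pcna (ENSMUSG00000027342), the ring that holds polymerases on DNA, had 177 and 219.7 CPM in Rad21 KO and 141 and 132 CPM in wild type. The groups did not overlap, at means of 198 ± 30.4 CPM in Rad21 KO and 136 ± 6.29 CPM in wild type (SD, n = 2 each), a 1.45-fold difference (log2 fold change 0.54, SE 0.13, adjusted p = 0.0377 by edgeR). Leaving out Rad21 KO replicate 2 (0.39) or wild type replicate 2 (0.49) ended the call, and 2 pseudogenes named after Pcna make its count uncertain.

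Rfc3 (ENSMUSG00000033970), a small subunit of the loader that opens the clamp, had 24.0 and 35.3 CPM in Rad21 KO libraries and 16.5 and 13.4 CPM in wild type libraries. All Rad21 KO values were above all wild type values, at means of 29.6 ± 8.02 CPM in Rad21 KO and 15.0 ± 2.19 CPM in wild type (SD, n = 2 each). The 1.98-fold difference (log2 fold change 0.98, SE 0.23, adjusted p = 0.0368 by edgeR) was not called without Rad21 KO replicate 2 (0.69) or without wild type replicate 2 (0.84). The remaining loader subunits were not called and went both ways. The large subunit Rfc1 had 72.4 and 91.6 CPM in Rad21 KO and 60.3 and 75.1 CPM in wild type. Rfc5 had 61.3 and 43.1 CPM in Rad21 KO and 40.6 and 37.8 CPM in wild type, and Rfc4 had 3.70 and 5.28 CPM in Rad21 KO and 4.37 and 3.60 CPM in wild type. Rfc2 was the loader subunit with both Rad21 KO libraries below wild type, at 19.8 and 22.0 CPM in Rad21 KO against 27.9 and 28.0 CPM in wild type. Its log2 fold change was −0.42 (SE 0.15), with an unadjusted p of 0.0289 and an adjusted p of 0.124 by edgeR.

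Of 8 polymerase and primase genes, Pold1 alone was called, where 7.6% of all 12003 tested genes were higher and 5.17% lower. Pold1 (ENSMUSG00000038644), the catalytic subunit of DNA polymerase delta, which copies the lagging strand, had 46.5 and 58.5 CPM in Rad21 KO libraries and 31.6 and 19.5 CPM in wild type libraries. The groups did not overlap, although the wild type libraries were far from each other: the means were 52.5 ± 8.47 CPM in Rad21 KO and 25.5 ± 8.51 CPM in wild type (SD, n = 2 each). The difference was 2.05-fold (log2 fold change 1.04, SE 0.24, adjusted p = 0.0341 by edgeR); with all 4 libraries this was the largest rise among the 46 genes, but without wild type replicate 2 it was below those of Rfc3 and Cdt1, without Rad21 KO replicate 2 below that of Orc1, and without Rad21 KO replicate 1 below that of Rfc3. It was not called without Rad21 KO replicate 2 (0.88) or without wild type replicate 2 (0.73). Its accessory subunit Pold2 had 14.9 and 12.9 CPM in Rad21 KO and 15.3 and 13.0 CPM in wild type, so the 2 subunits of 1 enzyme stood at log2 fold changes of 1.04 and −0.02, a difference that was not itself tested. Pold2 overlaps Aebp1, so its count is uncertain.

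The leading-strand polymerase gene Pole had 15.1 and 21.8 CPM in Rad21 KO and 21.0 and 24.9 CPM in wild type, and its subunit gene Pole2 had 3.01 and 3.47 CPM in Rad21 KO and 2.46 and 3.46 CPM in wild type. Polymerase alpha and primase lay the primers of each new fragment. Their genes showed small differences: Pola1 had 28.1 and 30.3 CPM in Rad21 KO and 22.3 and 26.0 CPM in wild type, and Pola2 had 35.7 and 34.6 CPM in Rad21 KO and 36.5 and 37.1 CPM in wild type. Prim1 had 12.6 and 15.7 CPM in Rad21 KO and 12.6 and 16.3 CPM in wild type. Prim2 had 23.4 and 24.3 CPM in Rad21 KO and 23.5 and 26.5 CPM in wild type, and both primase genes overlapped between genotypes.

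Replication protein A coats single-stranded DNA, and of its 3 subunit genes the smallest was the one that fell. Rpa3 (ENSMUSG00000012483) had 7.12 and 8.76 CPM in Rad21 KO libraries (52 and 63 counts), against 13.7 and 19.8 CPM in wild type libraries (100 and 143 counts). Both Rad21 KO values were below both wild type values, at means of 7.94 ± 1.16 CPM in Rad21 KO and 16.7 ± 4.34 CPM in wild type (SD, n = 2 each). The log2 fold change was −1.07 (SE 0.26, adjusted p = 0.0382 by edgeR), and the call ended without wild type replicate 2 (−0.79), without Rad21 KO replicate 1 (−0.93) and with DESeq2 (−1.08). Rpa1, the large subunit, had 112 and 107 CPM in Rad21 KO and 123 and 118 CPM in wild type. Rpa2 had 29.4 and 31.7 CPM in Rad21 KO and 30.2 and 27.8 CPM in wild type. Neither was called: the 95% interval for Rpa1 was −0.38 to 0.10, which does not meet that of Rpa3, −1.68 to −0.47. The difference between these subunits was not itself tested, and Rpa1 overlaps Smyd4, so its count is uncertain.

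The genes that finish Okazaki fragments lay on opposite sides. Fen1, the nuclease that removes the primer flap, had 39.6 and 40.3 CPM in Rad21 KO and 31.7 and 34.3 CPM in wild type (log2 fold change 0.27, SE 0.13). Lig1, the ligase that seals the nick, had 28.5 and 32.9 CPM in Rad21 KO and 42.4 and 42.0 CPM in wild type. Both genes separated by genotype without passing the test, Lig1 at −0.46 on the log2 scale (SE 0.14, unadjusted p = 0.0137, adjusted p = 0.0794 by edgeR). Fen1 overlaps Tmem258 and Lig1 overlaps Zswim9, so both counts are uncertain.

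Nucleotide supply was the role with the smallest differences, from −0.14 to −0.01 on the log2 scale, and 0 of 4 genes were called by edgeR, DESeq2 or limma-voom or had an unadjusted p under 0.05. The summed level was 156 and 177 CPM in Rad21 KO libraries and 165 and 176 CPM in wild type libraries. Rrm1, the large subunit of ribonucleotide reductase, had 55.4 and 64.2 CPM in Rad21 KO and 57.7 and 62.5 CPM in wild type. Its small subunit Rrm2, made mainly in S phase, had 21.8 and 26.5 CPM in Rad21 KO and 26.8 and 26.6 CPM in wild type. Thymidylate synthase, Tyms, had 57.6 and 63.9 CPM in Rad21 KO and 60.3 and 63.8 CPM in wild type, and thymidine kinase, Tk1, had 20.7 and 22.1 CPM in Rad21 KO and 20.8 and 23.1 CPM in wild type. The 95% intervals of −0.31 to 0.30 for Rrm1 and −0.32 to 0.26 for Tyms bound a difference in either direction, and Tk1, which overlaps Afmid, and Tyms, which has a named pseudogene, carry uncertain counts.

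Of the regulators, Uhrf1, which brings the maintenance methyltransferase to newly copied DNA, had 40.7 and 65.5 CPM in Rad21 KO and 63.0 and 68.7 CPM in wild type. Its Rad21 KO libraries were far apart and overlapped wild type (log2 fold change −0.31, SE 0.22). E2f1, an activator of S-phase genes, had 14.4 and 14.7 CPM in Rad21 KO and 10.2 and 11.6 CPM in wild type. The groups did not overlap, and its value of 0.41 on the log2 scale (SE 0.19, 95% interval −0.05 to 0.87, adjusted p = 0.213 by edgeR) did not pass the test. E2f1 overlaps Necab3.

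**Figure D4:**
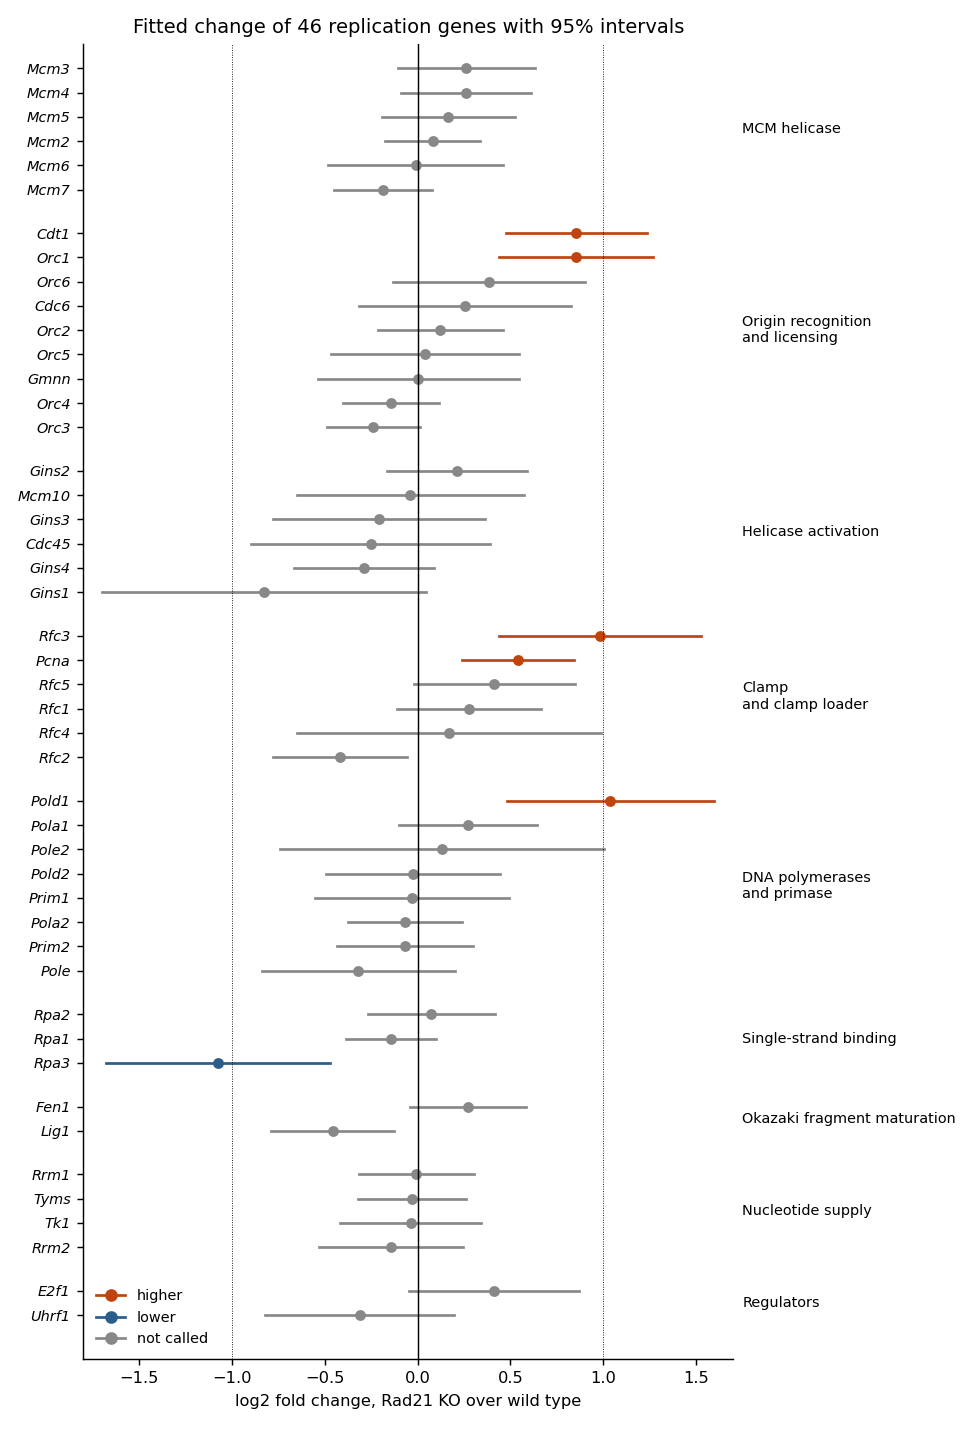
Log2 fold change of Rad21 KO over wild type for each of the 46 genes, ordered by role, with its 95% interval; dotted lines stand at −1 and 1, orange marks genes called higher, blue a gene called lower and grey the genes not called. The 5 called genes that rose and Rpa3, which fell, have intervals clear of 0, as do Lig1 and Rfc2 before adjustment, and those of 39 genes stay inside the dotted lines.

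Between the Rad21 KO replicates, the replication genes were mostly shifted in 1 direction, while all tested genes together were not. Rad21 KO replicate 2 stood above Rad21 KO replicate 1 in 38 of the 46 genes (82.6%), against 50.3% of all tested genes, with a median log2 ratio of 0.18 beside 0.0033. Wild type replicate 2 stood above wild type replicate 1 in 26 of the 46 (56.5%), against 47.2% of all tested genes, with a median log2 ratio of 0.069 beside −0.017. The summed level of all members was 1797 and 2021 CPM in Rad21 KO libraries and 1789 and 1813 CPM in wild type libraries, so Rad21 KO replicate 2 was above the other 3 libraries, which lay between 1789 and 1813 CPM. In the Rad21 KO pair replicate 2 was higher in 5 of 6 MCM genes, 7 of 9 origin and licensing genes, 5 of 6 helicase activation genes, 5 of 6 clamp genes, 6 of 8 polymerase genes, 2 of 3 single-strand binding genes, 2 of 2 Okazaki genes, 4 of 4 nucleotide genes and 2 of 2 regulators. In the wild type pair the counts in the same order were 2, 5, 4, 2, 6, 1, 1, 3 and 2. The polymerase genes thus had the same count in both pairs, with a median log2 ratio of 0.14 in Rad21 KO and 0.19 in wild type, and the summed level of the single-strand binding genes was 148 and 147 CPM in Rad21 KO replicates 1 and 2. Of the related lists described below, some had similar values. Rad21 KO replicate 2 was above replicate 1 in 18 of 24 other replication fork genes (median 0.18). It was also above in 9 of 10 genes of replication-coupled chromatin assembly and methylation (median 0.16). The remaining lists had smaller medians. These were 8 of 14 proliferation markers (0.084), 13 of 21 nucleotide synthesis and salvage genes (0.079) and 7 of 13 origin firing genes (0.022). The degradation list had 8 of 16 (−0.0087) and the E2F and pocket protein list 7 of 17 (−0.028). Among single genes, Mcm6 had 43.3 and 61.6 CPM and Uhrf1 40.7 and 65.5 CPM in Rad21 KO replicates 1 and 2. No test was made, as this is 1 pair of libraries. Replicate 1 is also the library in which Lars2 and Gm15564 took 34.5% of the counts, and whether that bears on the difference was not tested. The median member log2 fold change of −0.00 was 0.13 without Rad21 KO replicate 1.

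**Figure D5:**
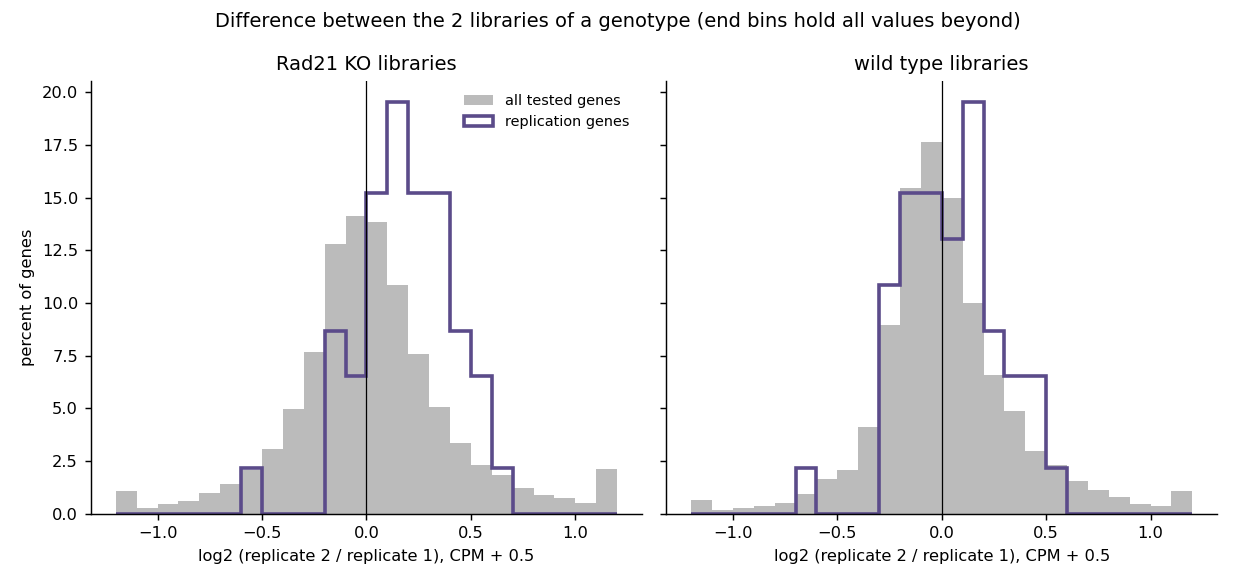
Distribution over genes of the log2 ratio of replicate 2 to replicate 1, in the Rad21 KO pair and in the wild type pair, for the 46 members and for all 12003 tested genes. In the Rad21 KO pair the members are shifted to a median of 0.18 while all tested genes stay at 0.0033; in the wild type pair the medians are 0.069 and −0.017.

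Genes that act beside the members were taken from 7 further lists, 113 genes in all, each of which passed the filter. Of these, 0 were higher and 3 lower in Rad21 KO by edgeR, where 7.6% and 5.17% of all tested genes were; at 113 genes both counts are below that share. The 24 other replication fork genes had 0 called, with 1 higher and 4 lower at an unadjusted p under 0.05 and a median log2 fold change of −0.06. At that unadjusted p, 1889 of all 12003 tested genes were higher and 1643 lower. Top1, which relaxes supercoils ahead of the fork, had 211 and 226 CPM in Rad21 KO and 215 and 218 CPM in wild type. Chtf8, part of an alternative clamp loader, had 138 and 113 CPM in Rad21 KO and 142 and 121 CPM in wild type. Both overlapped between genotypes. The 13 origin firing kinases and activators likewise had 0 called, with 2 higher and 2 lower at an unadjusted p under 0.05. Among them Topbp1, a scaffold for helicase activation, had 106 and 116 CPM in Rad21 KO and 130 and 132 CPM in wild type (log2 fold change −0.24, SE 0.11). Lrwd1, a partner of the origin recognition complex, had 74.2 and 77.6 CPM in Rad21 KO and 97.8 and 95.3 CPM in wild type (−0.35, SE 0.11).

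The 10 genes of replication-coupled chromatin assembly and methylation had 0 called (1 higher and 0 lower at an unadjusted p under 0.05), with the histone chaperone Rbbp4 at 275 and 293 CPM in Rad21 KO and 280.0 and 276 CPM in wild type. The maintenance methyltransferase Dnmt1 was at 120 and 129 CPM in Rad21 KO and 134 and 135 CPM in wild type. The 21 nucleotide synthesis and salvage genes also had 0 called (2 higher and 0 lower at an unadjusted p under 0.05). Deoxycytidine kinase, Dck, had 297 and 275 CPM in Rad21 KO and 323 and 315 CPM in wild type, and the purine enzyme Paics had 62.8 and 66.6 CPM in Rad21 KO and 78.6 and 73.0 CPM in wild type. Dnmt1, Dck and Paics each had both Rad21 KO libraries below wild type without a call. DESeq2 and limma-voom called 0 genes in these 4 lists as well.

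The 3 genes that fell belong to the lists on E2F control and on protein removal. Of 17 E2F and pocket protein genes, 0 were higher and 6 lower at an unadjusted p under 0.05, against 1889 and 1643 of all 12003 tested genes. Rbl2, the pocket protein that represses E2F targets in resting cells, was the 1 called. It had 177 and 173 CPM in Rad21 KO libraries and 243 and 242 CPM in wild type libraries. The replicates were close and the groups did not overlap (log2 fold change −0.47, SE 0.09, adjusted p = 0.0212 by edgeR), though leaving out Rad21 KO replicate 2 (−0.44), wild type replicate 1 (−0.47) or wild type replicate 2 (−0.48) ended the call. Of 16 genes for the degradation of licensing and clamp-bound proteins, Dtl and Skp1a fell. At an unadjusted p under 0.05, 3 genes of this list were higher and 2 lower. Dtl, the adaptor through which a ubiquitin ligase destroys Cdt1 on clamp-bound DNA, had 52.6 and 59.9 CPM in Rad21 KO and 77.6 and 79.2 CPM in wild type (log2 fold change −0.48, SE 0.12, adjusted p = 0.0472 by edgeR). Skp1a, the core subunit of another such ligase, had 172 and 166 CPM in Rad21 KO and 216 and 222 CPM in wild type (log2 fold change −0.38, SE 0.09, adjusted p = 0.0443 by edgeR). Both groups of libraries separated for each gene, but leaving out any one of the 4 libraries ended both calls, at −0.56 to −0.38 for Dtl and −0.39 to −0.33 for Skp1a, as did DESeq2.

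Proliferation markers gave a further reading of cycling cells. Of 14 such genes 0 were called by edgeR, DESeq2 or limma-voom and 0 had an unadjusted p under 0.05, with a median log2 fold change of 0.00. Their summed level was 450.5 and 494 CPM in Rad21 KO libraries and 502 and 484 CPM in wild type libraries. Mki67, made in cycling cells, had 154 and 182 CPM in Rad21 KO and 198 and 192 CPM in wild type (log2 fold change −0.22, SE 0.11). Top2a, which untangles sister chromatids, had 110.0 and 125 CPM in Rad21 KO and 121 and 116 CPM in wild type (−0.02, SE 0.11). Rad21 KO replicate 2 was above replicate 1 in 8 of these 14 genes. Markers of other cells that a thymus sort could hold were also summed. B cell markers gave 19.2 and 17.5 CPM in Rad21 KO and 25.6 and 21.5 CPM in wild type. Most of this was Cd79b, with 95 and 91 counts in Rad21 KO and 126 and 96 counts in wild type. Blnk had 43 and 30 counts in Rad21 KO and 54 and 48 counts in wild type, and Ms4a1 had 0 or 1 count. Neither Cd79b nor Blnk was called. Myeloid and dendritic markers summed to 19.4 and 22.9 CPM in Rad21 KO and 29.2 and 33.7 CPM in wild type. Itgam, within this sum, had 8.35 and 8.62 CPM in Rad21 KO and 17.5 and 24.0 CPM in wild type. The other tested markers of this list, Csf1r, Lyz2 and Flt3, were not called. Red cell markers summed to 3.56 and 7.78 CPM in Rad21 KO and 5.33 and 3.60 CPM in wild type. The list of stromal markers summed to 106 and 116 CPM in Rad21 KO and 154 and 151 CPM in wild type. Nearly all of this was Pecam1, and whether it came from stromal cells was not tested. Krt5, Krt8 and Foxn1, of the same list, had at most 5 counts in any library. Of the tested markers in these lists Itgam and Pecam1 fell and Epcam rose, while Pdgfra had 0 counts in every library. The part of these cells in the results was not tested.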

How the data were processed

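RNA was measured in 2 Rad21 KO and 2 wild type libraries of sorted DP thymocytes. Ribosomal RNA was removed with RiboMinus and TruSeq libraries were made, per the labels' protocols. The authors deposited estimated counts per Ensembl gene, called count equivalents; all are whole numbers, and they were rounded as a precaution. Their build was mm9, according to the submitters' processing notes. Neither aligner nor counter nor strand setting is given in these sources. The 14 members that overlap a protein-coding gene and the 2 with named pseudogenes therefore have uncertain counts. The 14 are Mcm7, Orc1, Orc3, Orc4, Cdc45, Gins2, Rfc4, Pold2, Pole2, Rpa1, Fen1, Lig1, Tk1 and E2f1. Symbols matched 17342 of 17849 identifiers; 0 columns were unused.

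Genes were filtered with filterByExpr, scaled by TMM and tested in edgeR 4.0.16 (R 4.3.3) with the quasi-likelihood test of genotype without a block, Benjamini-Hochberg adjustment over 12003 genes and a threshold of 0.05. Intervals of 95% use the SE from F and the fit's total degrees of freedom. DESeq2 1.42.0, limma-voom (limma 3.58.1), other scalings, no filter, a replicate block and leaving out each library were alternatives.

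Members and lists were chosen with earlier results of these data known, so no list was tested. Named genes were Rad21, all members and, of each related list, the called genes or else the 2 with the highest mean CPM. CPM are not scaled to gene length, so levels were not compared between genes. Replicates differed by more than counting noise (chi-square per degree of freedom 85.9 in Rad21 KO and 7.43 in wild type over all genes, and 3.76 and 2.29 over members). The values over all genes used library totals without TMM scaling. The 85.9 therefore also holds the unequal share of Lars2 and Gm15564, 34.5% and 12.6% in Rad21 KO replicates 1 and 2. Peak lists and Hi-C were not used here, since the peaks are on mm9 and the promoter table is on GRCm38.p6, and protein motifs were not analysed here.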

Additional observations from a re-analysis of the deposited data

How the results depend on the processing

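The 6 member calls were also made with RLE or upper quartile scaling, limma-voom, or without Lars2 and Gm15564. Without the low-count filter the calls numbered 433 instead of 1533 (285 higher, 148 lower), with 0 members, 0 related genes and 1 DP marker; 17003 genes were then tested. DESeq2 called 5 members (0 lower) and 1 related gene. Leaving out each library in turn gave 947 to 1438 calls (574 to 880 higher, 373 to 558 lower), 1 to 6 members called (1 to 5 higher, 0 to 2 lower), a median member log2 fold change of −0.057 to 0.13 and 0 to 9 related genes. Without wild type replicate 2, 947 genes and 1 member, Cdt1, were called. The median of 0.13 and the 9 related calls came without Rad21 KO replicate 1, and leaving out Rad21 KO replicate 2, or instead wild type replicate 1, gave 0 related calls. Without wild type replicate 1, 413 genes were lower. Without Rad21 KO replicate 2, Rfc5 (0.66) and Uhrf1 (−0.68) were called and 3 of the 6 remained; the cause was not tested.

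The replicate numbers are shared by the genotypes, but the labels state no other pairing, so same-numbered libraries were not taken as pairs. Across all tested genes, the log2 ratios of replicate 2 to replicate 1 in the 2 genotypes had a correlation of 0.0340. With a replicate block, 1025 genes were called (381 lower) and 3 members, 2 higher and 1 lower, namely Cdt1, Orc1 and Rpa3; Dtl (−0.48) and Skp1a (−0.38) were no longer called, and 2 DP markers were lower instead of 5.

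Signs changed only for genes not called in any fit. Upper quartile scaling, which moves the median of all genes to −0.05, gave −0.037 for Gmnn, −0.00092 for Orc5, −0.012 for Rbbp4 and −0.029 for Top1. For Gmnn limma-voom gave −0.0013 and the fit without Lars2 and Gm15564 −0.0044. Over the fits that left out 1 library, the sign changed within Chtf8 (−0.21 to 0.083), Gmnn (−0.12 to 0.14), Mcm10 (−0.30 to 0.20), Mcm5 (−0.020 to 0.35), Mcm6 (−0.27 to 0.23), Orc5 (−0.042 to 0.14), Pold2 (−0.14 to 0.095), Pole2 (−0.096 to 0.39), Prim1 (−0.21 to 0.16), Prim2 (−0.15 to 0.017), Rfc4 (−0.094 to 0.41), Rrm1 (−0.10 to 0.10), Rrm2 (−0.28 to 0.00064), Tk1 (−0.12 to 0.037), Top1 (−0.021 to 0.070), Top2a (−0.10 to 0.080) and Tyms (−0.092 to 0.051). The peak-window alternative was not run, as no annotation of the peaks' build was used. At 2 libraries per genotype, genes of few counts such as Gins1 and Pole2 have the widest intervals.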
